A study of Mus musculus with 6 samples.

Results

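The 9 genes described here encode proteins of the tight junction: 6 claudins (Cldn2, Cldn3, Cldn4, Cldn7, Cldn15 and Cldn23), occludin (Ocln), junctional adhesion molecule A (F11r) and the scaffold protein zonula occludens 1 (Tjp1). They comprise claudins said to form pores, claudins said to seal, and the membrane and scaffold proteins that accompany them. They were chosen by name, with earlier results of these data known. All 9 were found among the 54838 gene IDs of the count tables and all 9 were among the 15998 genes that passed the filter on low counts. RNA was measured by bulk sequencing in 6 libraries of mouse intestinal cells, of which 3 had received INT-777 and 3 the solvent DMSO. INT-777 is a bile acid derivative that activates TGR5, a bile acid receptor of the cell surface, and the study looked for genes induced by it in stem cells.

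Both groups came from B6.129P2-Lgr5tm1(cre/ERT2)Cle/J mice, in which the Lgr5 locus drives eGFP together with a tamoxifen-inducible Cre, so that every library, control or treated, carries this allele. On each of 3 days, GFPhi cells were sorted from the intestines of 4 pooled mice and about 200000 cells were embedded in Matrigel, 20000 to a drop of 10 µL. INT-777 (30 µM) or DMSO was given 4 h after embedding. The sample labels give a treatment of 12 h and the design text one of 16 h. The medium of both groups contained JAG-1 (1 µM) and CHIR99021 (3 µM), an inhibitor of GSK3 that activates Wnt signalling. Mouse age, sex and the stretch of intestine are not given in the sources used here. Each library is therefore a pool of animals and holds cells sorted by a reporter of Lgr5, dissociated and then cultured for hours outside the tissue.

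Between 45682340 and 47905087 read pairs per library were assigned to genes, and each of the 9 genes had 312 to 35947 pairs in a library. Libraries of the same group from days 1 and 2 were nearly alike, with a chi-square averaged over genes of 2.46 in DMSO and 3.26 in INT-777, against 51 to 93.9 for day 3 set beside either of them. The RNA integrity number was lowest on day 3 in each group. It was 9.3, 9.6 and 8.7 in DMSO on days 1, 2 and 3, and 9.2, 9.2 and 9.0 with INT-777. The ratio of 28S to 18S ribosomal RNA was 1.7, 1.8 and 1.2 in DMSO and 1.6, 1.6 and 1.3 with INT-777. Summed goblet cell markers (10 genes, none at 0) were 5710, 5613 and 28340 CPM in DMSO on days 1, 2 and 3, and 3043, 2941 and 12510 CPM with INT-777. Summed enteroendocrine markers (7 genes) were 565, 577 and 2540 CPM in DMSO on days 1, 2 and 3, and 530, 535 and 2010 CPM with INT-777. Stem cell markers (8 of 8 above 1 CPM on average) summed to 982 to 1045 CPM in DMSO and 826 to 869 CPM with INT-777, and epithelial markers (8 of 8) to 8981 to 9390 and 10190 to 10620 CPM. Paneth cell markers (7 genes) summed to 3887, 3696 and 3432 CPM in DMSO and 3355, 3544 and 2251 CPM with INT-777. Enterocyte markers (7 genes) summed to 386, 394 and 331 CPM in DMSO and 429, 436 and 406 CPM with INT-777, and tuft cell markers (5 genes, 1 at 0) to 26.4, 24.6 and 33.4 against 28.2, 28.4 and 37.9 CPM. Markers of immune cells (9 genes), fibroblasts (5) and endothelium (4) summed to at most 6.44, 1.27 and 2.78 CPM.

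Tight junctions close the space between neighbouring epithelial cells near the lumen and decide which ions, water and solutes pass there. Claudins are small membrane proteins that polymerise into the strands of the junction. Some of them, such as claudin-2 and claudin-15, form selective channels, and others, such as claudin-3 and claudin-4, are known for tightening the barrier. Occludin and junctional adhesion molecules lie in or beside the strands, and zonula occludens proteins tie them to actin. In the intestine, claudin-2 is known from the crypt and leaky epithelium, and claudin-15 for the sodium that nutrient uptake needs in the small bowel.

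The start regions of the claudins that the comparison turns on are given first: both pore-forming claudins, and the sealing pair Cldn3 and Cldn4 that lie side by side on chromosome 5. The RefSeq promoter table (GRCm38.p6) held 8 of the 9 genes with 10 start sites. The sequences below are the bases upstream of the start site, 5′ to 3′ on the gene's own strand. Capitals mark matches on either strand to an AP-1 site (TGANTCA), a cAMP response element (TGACGTCA), a TATA box (TATAAA) or a CDX core (TTTAT). Cldn2 lies on the forward strand (chrX:139800558-139800807) and Cldn3 on the forward strand (chr5:134985964-134986213). Cldn4 lies on the reverse strand (chr5:134946935-134947184) and Cldn15 on the forward strand (chr5:136967619-136967843). The Cldn15 stretch leaves out the 25 bases next to the start, which lie in an annotated exon. This stretch lies inside the annotated span of the gene (chr5:136966616-136975858), not before it.
Cldn2: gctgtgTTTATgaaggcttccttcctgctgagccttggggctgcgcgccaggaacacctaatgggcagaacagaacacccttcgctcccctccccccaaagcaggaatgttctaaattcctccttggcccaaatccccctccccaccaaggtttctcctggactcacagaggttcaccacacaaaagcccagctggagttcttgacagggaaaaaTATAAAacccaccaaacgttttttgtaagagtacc
Cldn3: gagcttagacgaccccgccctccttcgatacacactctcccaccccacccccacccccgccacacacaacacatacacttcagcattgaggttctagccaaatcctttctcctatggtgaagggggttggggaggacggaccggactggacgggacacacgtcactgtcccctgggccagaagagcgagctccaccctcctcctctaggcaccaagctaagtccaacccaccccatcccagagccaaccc
Cldn4: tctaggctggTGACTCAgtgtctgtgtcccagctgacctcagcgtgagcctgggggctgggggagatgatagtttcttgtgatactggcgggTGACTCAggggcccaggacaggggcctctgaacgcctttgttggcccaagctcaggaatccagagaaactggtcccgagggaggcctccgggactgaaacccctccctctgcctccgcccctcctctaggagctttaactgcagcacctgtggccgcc
Cldn15: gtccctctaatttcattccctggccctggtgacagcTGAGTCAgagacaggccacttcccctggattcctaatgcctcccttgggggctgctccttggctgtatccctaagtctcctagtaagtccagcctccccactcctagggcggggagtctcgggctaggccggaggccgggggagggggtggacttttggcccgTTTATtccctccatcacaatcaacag
The Cldn2 window holds a TATA box at bases -35 to -30, counted back from the start site, which 12.4% of the 32851 mouse promoter windows of the same length also hold somewhere. A CDX core at -244 to -240 and another that overlaps the TATA box are matched there as well (37.3% of windows). The Cldn15 window holds a CDX core at -51 to -47, and that of Tjp1 holds 1 at -171 to -167. The Cldn4 window holds 2 AP-1 matches, at -240 to -234 and -158 to -152, and the Cldn15 window 1, at -214 to -208 (6.75% of windows). F11r also holds 1, at -109 to -103. The Cldn3 window matches none of these 4 motifs. A cAMP response element was matched only at the second start site of Cldn7 (-38 to -31, in 1.55% of windows) among the 10 start sites. The GC box (GGGCGG, 32.7% of windows) is not capitalised, and the NF-kB motif (7.25% of windows) had no match in the 10. A match describes letters and was not tested as a binding site.

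With INT-777, Cldn3 and Ocln were lower past the threshold. Of the 9 changes 8 were negative, where 7892 of all 15998 tested genes had a negative change. The 8 include Cldn2, whose change of -0.05 did not pass. The median change of the 9 was -0.33 on the log2 scale against 0.00 over all tested genes. The test was edgeR's quasi-likelihood test with treatment as the single term and Benjamini-Hochberg adjustment over all 15998 genes, at an adjusted p under 0.05. It called 2 of the 9 lower and 0 higher, where it called 0.763% of all tested genes lower and 0.688% higher. At an unadjusted p under 0.05 in edgeR, 6 were lower and 0 higher, a threshold for which the share of all tested genes is not given here. DESeq2 called 5 of the 9 lower and 0 higher, beside 429 lower and 369 higher among all 15998 genes. For limma-voom these were 2 and 0, beside 116 and 98. The labels tie the replicate number to the day of the sort, so the fit was also made with day as a replicate block, which compares the libraries of the same day. In that fit 7 of the 9 were lower and 0 higher (0 also at an unadjusted p under 0.05), beside 10.3% of all tested genes lower and 11.1% higher. All 3 INT-777 libraries lay below all 3 DMSO libraries for the same 7 genes, as for 10.96% of all tested genes. The 2 genes outside these 7 were Cldn2, a pore-forming claudin, and Tjp1, the scaffold. In bulk samples, fewer cells of a type and less RNA per cell cannot be told apart. The p-values without the block measure the spread between 3 sorts per group, of which days 1 and 2 were nearly alike. Those with the block measure the spread of the differences within a day over the same 3 days.

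Cldn2 encodes claudin-2, which forms a channel for cations and water, and is a gene of the X chromosome (chrX:139800828-139811386; this and the gene positions that follow are those of GENCODE M21 on GRCm38). Its level was 768, 780 and 696 CPM in DMSO on day 1, day 2 and day 3 in turn, and 738, 739 and 698 CPM with INT-777. The lowest value of each group came from day 3, and the groups overlapped. The change was -0.05 ± 0.07 on the log2 scale (SE, n = 3 per group; edgeR adjusted p = 0.779), with a 95% interval of -12.8 to 7.66% of the DMSO level. With the day block it was -0.04 ± 0.04 (edgeR adjusted p = 0.505), with an interval of -8.71 to 3.06%. Without the libraries of day 3 it was -0.08, which passed without the block (edgeR adjusted p = 0.0483) and did not pass with it (0.124).

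Cldn15 encodes claudin-15, a channel for sodium and other small cations (chr5:136966616-136975858). In DMSO it was measured at 129, 130 and 198 CPM on days 1, 2 and 3, and with INT-777 at 90.5, 87.5 and 128 CPM. The treated library of day 3 came close to the controls of days 1 and 2 and lay just below them, so that the groups did not overlap. On each day the treated library was lower, with differences of -0.51, -0.57 and -0.62 on the log2 scale. Over the groups the change of -0.58 ± 0.24 (SE, n = 3) did not pass (edgeR adjusted p = 0.313), and with the day block the change of -0.57 ± 0.04 did (edgeR adjusted p = 2e-07). Cldn15 was also high on day 3, with 1.53 times the mean level of days 1 and 2 on day 3 in DMSO and 1.44 times with INT-777.

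Cldn3 encodes claudin-3, known as a sealing claudin (chr5:134986214-134987472). Its DMSO libraries had 323, 330 and 402 CPM and its INT-777 libraries 203, 208 and 252 CPM. Every treated library lay below every control, and day 3 was the highest in each group. Cldn3 fell by 0.67 on the log2 scale (SE 0.11, n = 3; 1.59-fold; edgeR adjusted p = 0.0416), and the day block gave the same change with an SE of 0.04 (edgeR adjusted p = 1.84e-08). The change was -0.67 on each of the 3 days. An antisense gene shares 40 bases, 3.18%, of its exons, and the counts used ignore strand. The call was lost without DMSO replicate 1 or 2 (edgeR adjusted p = 0.106 and 0.123), without INT-777 replicate 1 or 2 (0.196 and 0.202) and without both libraries of day 1 or day 2 (0.522 and 0.484), in fits that have fewer samples.

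Cldn4 encodes claudin-4, also counted as sealing, and is a close neighbour of Cldn3 on chromosome 5 (chr5:134945119-134946934). It had 245, 241 and 304 CPM in DMSO and 154, 151 and 219 CPM with INT-777. The groups did not overlap, and day 3 was again the highest of each. By day the change was -0.67, -0.67 and -0.47, the smallest on day 3, and whether the days differ in their response was not tested. Over the groups it was -0.59 ± 0.17 (SE, n = 3; edgeR adjusted p = 0.179), and with the day block -0.60 ± 0.05 (edgeR adjusted p = 3.31e-07).

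Cldn7 encodes claudin-7, a claudin of the lateral membrane as well as the junction, listed as sealing by common usage (chr11:69964779-69967885). It was measured at 422, 409 and 455 CPM in DMSO and at 370, 378 and 398 CPM with INT-777. The groups lay side by side without overlap, and the differences on the 3 days were -0.19, -0.11 and -0.19 on the log2 scale. The change of -0.17 ± 0.06 (SE, n = 3) did not pass (edgeR adjusted p = 0.248), and with the day block -0.17 ± 0.04 did (edgeR adjusted p = 0.0081).

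Cldn23, a claudin whose effect depends on the epithelium, was the rarest of the 6 (chr8:35824712-35826559). It had 11.9, 10.1 and 15.4 CPM in DMSO and 7.57, 6.55 and 9.59 CPM with INT-777. The highest treated library, that of day 3, lay just below the lowest control, that of day 2. The change was -0.66 ± 0.19 (SE, n = 3; edgeR adjusted p = 0.169), and with the day block -0.66 ± 0.08 (edgeR adjusted p = 3.61e-05).

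Ocln encodes occludin, a membrane protein of the strand that shapes how junctions assemble (chr13:100496507-100552718). Its level was 126, 127 and 131 CPM in DMSO and 104, 105 and 108 CPM with INT-777. Libraries of a group were within a few CPM of each other, and the groups were well apart. Ocln fell by 0.28 on the log2 scale (SE 0.04, n = 3; 1.21-fold; edgeR adjusted p = 0.0322), and with the day block by 0.28 (SE 0.04; edgeR adjusted p = 0.000165). The call was lost without DMSO replicate 1 or 2 (edgeR adjusted p = 0.15 and 0.161), without INT-777 replicate 1 or 2 (0.179 and 0.224), without both libraries of day 1 or day 2 (0.615 and 0.71) and on the counts of the second strand (0.0669).

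F11r encodes junctional adhesion molecule A, an immunoglobulin-like protein that recruits polarity proteins to the junction (chr1:171437535-171464603). It was measured at 220, 227 and 243 CPM in DMSO and at 175, 176 and 198 CPM with INT-777, with no overlap. The change of -0.33 ± 0.07 (SE, n = 3) lay above the threshold (edgeR adjusted p = 0.0716), and with the day block -0.33 ± 0.04 passed (edgeR adjusted p = 2.93e-05). DESeq2 without the block also passed it (adjusted p = 0.000357).

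Tjp1 encodes the scaffold that binds claudins at their tails and links them to actin (chr7:65296165-65527781). It had 401, 414 and 299 CPM in DMSO and 403, 393 and 322 CPM with INT-777. Day 3 was the lowest in each group, and the groups overlapped throughout. The change was 0.01 ± 0.14 (SE, n = 3; edgeR adjusted p = 0.988), with a 95% interval of -20.5 to 26.8%. With the day block it was 0.01 ± 0.04 (edgeR adjusted p = 0.867), with an interval of -5.35 to 7.64%.

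**Figure D1:**
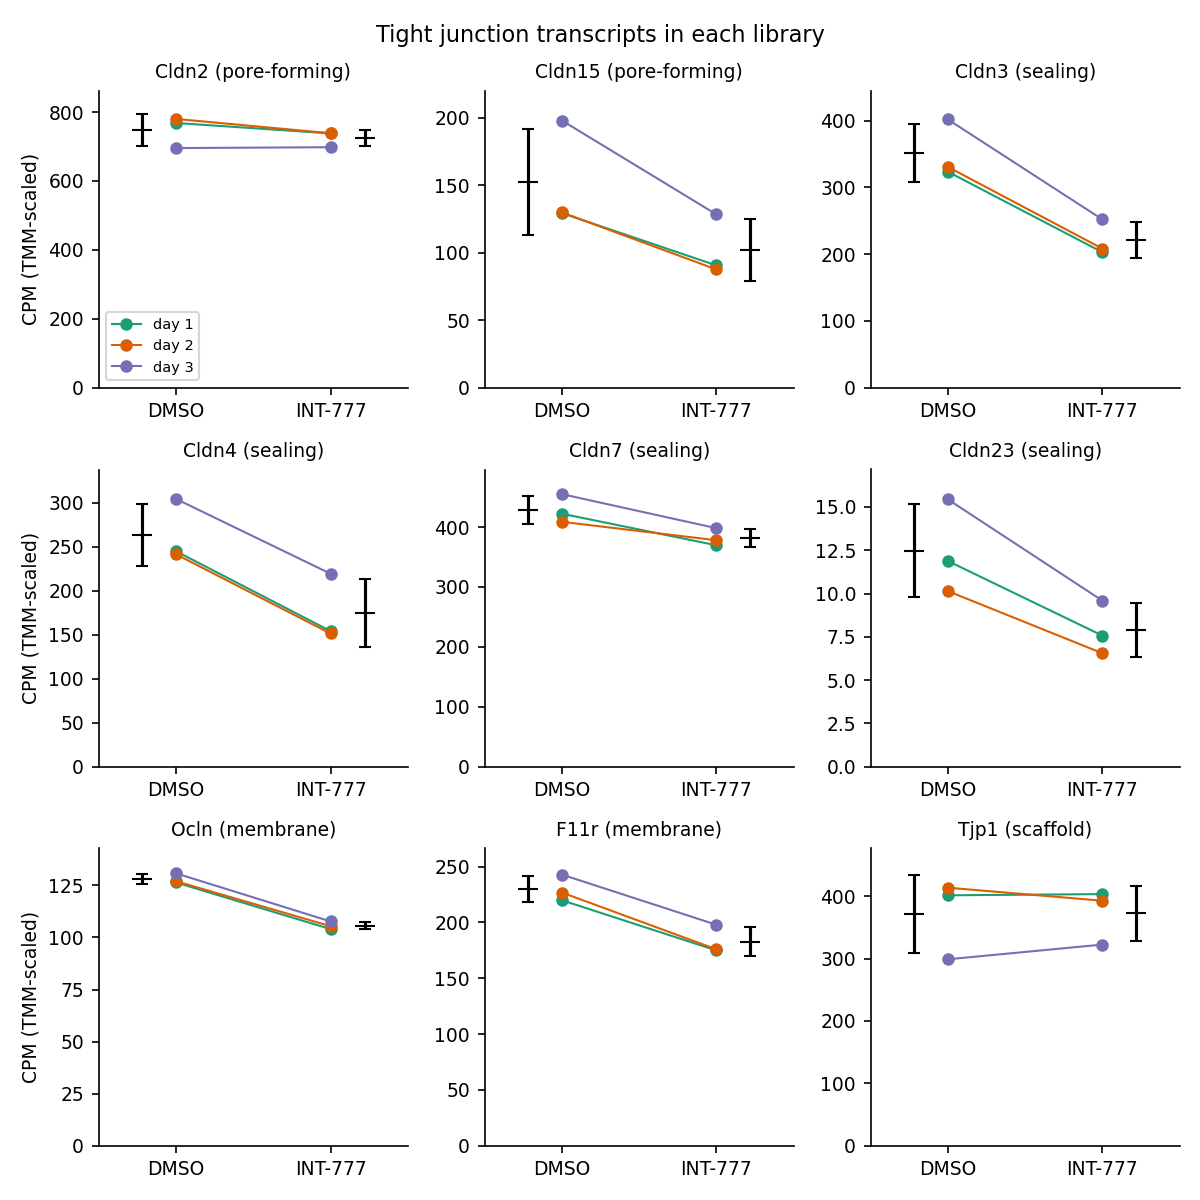
Level of each of the 9 genes in CPM (TMM-scaled; linear axes from 0) in the DMSO and INT-777 libraries, with lines joining the libraries of 1 day and black bars for the mean ± SD of 3 libraries. The lines run downward on all 3 days for 7 genes, while those of Cldn2 and Tjp1 are nearly flat (768, 780 and 696 CPM against 738, 739 and 698 CPM for Cldn2).

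**Figure D2:**
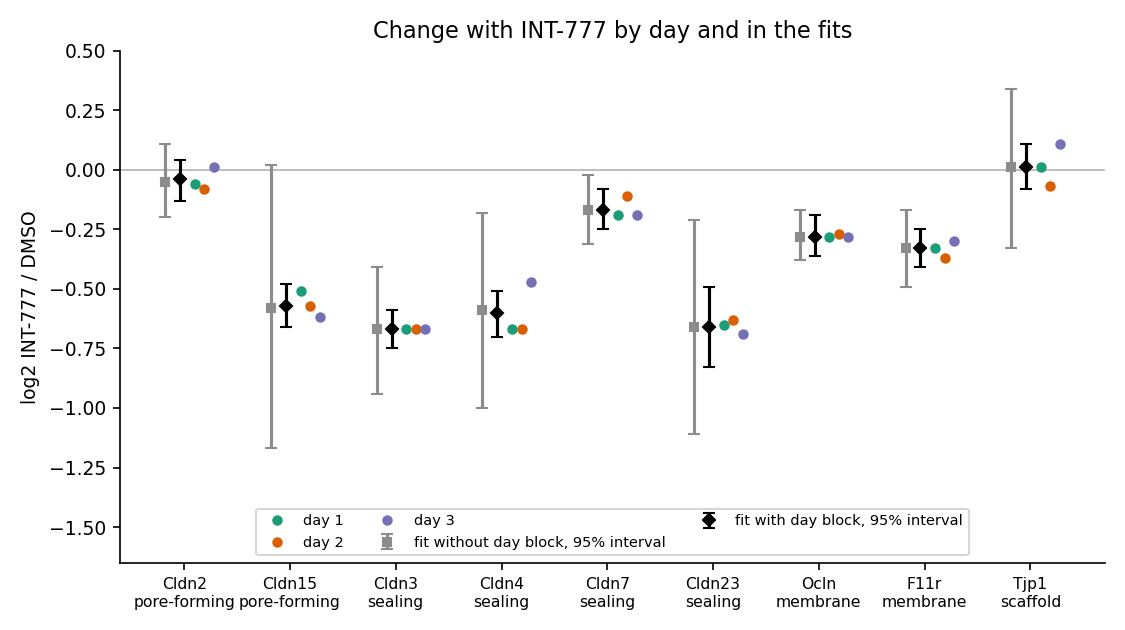
Change with INT-777 on the log2 scale for each gene, on each day (coloured points) and in the fits without and with day as a block (grey squares and black diamonds, bars are 95% intervals). The estimates of the fits are alike and their intervals differ in width: for Cldn15 the interval runs from -1.17 to 0.02 without the block and from -0.66 to -0.48 with it.

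The goblet marker sum was also lower with INT-777 on each day, as were these 7 genes, and was highest on day 3, as were Cldn3, Cldn4, Cldn7, Cldn15, Cldn23, Ocln and F11r in each group. For Cldn7 and Ocln the rise was small, and they did not pass the test between days given below. Day 3 stood at 1.095 and 1.065 times days 1 and 2 for Cldn7 in DMSO and INT-777, and at 1.032 and 1.028 times for Ocln. The enteroendocrine sum was likewise lower with INT-777 on each day and highest on day 3 in each group. The stem and Paneth sums were also lower with INT-777 on each day, and the enterocyte, epithelial and tuft sums higher. Without the libraries of any 1 day, the fit with the day block called 7 of the 9 lower. The part of these cell types in the results was not tested.

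The rule for these genes sets pore-forming against sealing claudins, and the pore-forming pair did not move as one. As the mean log2 CPM of Cldn2 and Cldn15 minus that of Cldn3, Cldn4, Cldn7 and Cldn23, the balance was 1.16, 1.24 and 1.12 in DMSO and 1.42, 1.44 and 1.31 with INT-777. This level is not scaled by exon length, gives the rare Cldn23 full weight, and depends on the genes chosen. With Cldn3 and Cldn4 alone as sealing it was 0.16, 0.17 and 0.09 in DMSO and 0.55, 0.52 and 0.35 with INT-777. The balance over the full sealing list was higher with INT-777 on each day, by 0.26, 0.20 and 0.20 (mean 0.22, SD 0.04, n = 3). With Cldn2 alone in place of the pair the difference was 0.49, 0.44 and 0.51 (mean 0.48, SD 0.04). With Cldn15 alone it was 0.03, -0.05 and -0.12 (mean -0.04, SD 0.08), which is within its spread over days. Against the sealing claudins, Cldn2 thus differed between the groups by more than its spread over days, and Cldn15 did not. These balances are descriptions of chosen genes and carry no test.

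Compared per kb of exon, Cldn3 had the highest level of the 9 in DMSO, at 279 ± 34.4 CPM per kb (SD, n = 3). Cldn2 (225 ± 13.8) and Cldn7 (220 ± 12.2) followed and overlapped each other. Below them stood Cldn4 (145 ± 19.5), then F11r (86.3 ± 4.42) and Cldn15 (71.7 ± 18.6), which overlapped, and then Tjp1 (47.5 ± 8.07), Ocln (30.3 ± 0.561) and Cldn23 (6.75 ± 1.46). With INT-777 the order at the top was another one. Cldn2 led with 218 ± 7.0 CPM per kb, Cldn7 (196 ± 7.52) and Cldn3 (175 ± 21.4) overlapped below it, and Cldn4 stood at 96.3 ± 21.2. F11r had 68.7 ± 4.88 CPM per kb, Cldn15 (48.1 ± 10.7) and Tjp1 (47.7 ± 5.63) overlapped, and Ocln (25.0 ± 0.441) and Cldn23 (4.28 ± 0.837) were the lowest. Summed over the 6 claudins, the level was 948 ± 71.7 CPM per kb in DMSO and 738 ± 54.2 with INT-777. Cldn2 made up 23.9% of that sum in DMSO and 29.7% with INT-777, and Cldn7 23.2% and 26.6%. Cldn3 made up 29.4% and 23.7%, Cldn4 15.3% and 13.0%, Cldn15 7.5% and 6.47%, and Cldn23 0.708% and 0.576%.

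**Figure D3:**
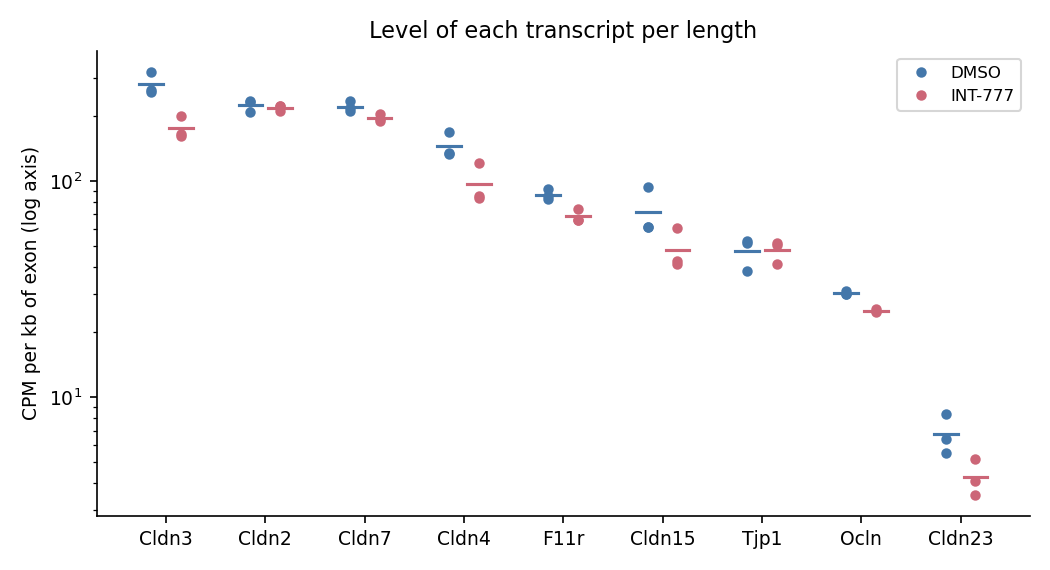
Level of the 9 genes in CPM per kb of exon (log axis), ordered by their DMSO mean, with a point for each library and a line for the mean of 3. Cldn3 leads in DMSO (279 CPM per kb) and lies below Cldn2 and Cldn7 on average with INT-777 (175 against 218 and 196 CPM per kb).

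Between days, 6 of the 9 genes differed (edgeR F-test of day beside treatment, adjusted over all tested genes), where 20.5% of all tested genes did. Cldn15 (edgeR adjusted p = 4e-07), Cldn4 (3.73e-05), Cldn3 (0.000244), Cldn23 (0.00128) and F11r (0.047) were higher on day 3. Tjp1 went the other way, at 0.733 times the level of days 1 and 2 in DMSO and 0.81 times with INT-777 (edgeR adjusted p = 0.000108). Cldn2 (0.165), Cldn7 (0.184) and Ocln (0.779) did not pass this test. Without day 3 it called 0 of the 9 (1 at an unadjusted p under 0.05). Goblet and enteroendocrine markers and the RNA integrity number moved with day 3 as given above, and their part in these differences was not tested.

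Profiles over the 6 libraries were compared by the root mean square difference of centred log2 CPM. They were not scaled, so the size of the changes counts as well as their direction, and genes that change little lie close. The closest pairs among the 9 were Ocln and F11r (0.059), Cldn7 and Ocln (0.066) and the neighbours Cldn3 and Cldn4 (0.087). Cldn15 lay closer to Cldn4 (0.097) and Cldn23 (0.1) than to its fellow pore-former Cldn2 (0.42). Among 9400 genes whose mean log2 CPM reached 3, the profile most like that of Cldn3 belonged to Lgals9 (0.043), and Tubb2b followed (0.044). Tox (0.052) and Lgals9 (0.053) were the most like Cldn4, and Stra6l (0.023) and Mmp15 (0.035) the most like Cldn15. Vwa5a (0.074) and Mmp15 (0.095) were closest to Cldn23, Ssbp3 and Ivns1abp (0.018 each) to Cldn7, and Usp6nl (0.0096) and Plk1 (0.012) to Cldn2. For Ocln these were Ptprs (0.016) and Psd3 (0.02), for F11r Dennd5a (0.021) and Slco4a1 (0.027), and for Tjp1 Ccdc15 (0.018) and Hdac7 (0.023). These are likenesses over 6 libraries that share 3 days and 1 treatment contrast.

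The 6 claudins held 96.8% of the read pairs counted for the 33 protein-coding claudin genes of the annotation. Of these 33, 12 passed the filter, 20 had under 10 pairs in the 6 libraries together and 11 of those had none. Cldn12, a claudin of broad expression, was the next in level, with 52.9, 49.9 and 52.8 CPM in DMSO and 54.4, 56.0 and 52.5 CPM with INT-777, and its change of 0.07 did not pass (edgeR adjusted p = 0.576). Cldn8, a sealing claudin of the large bowel and kidney, had 3.50, 3.32 and 2.95 CPM in DMSO and 2.04, 2.75 and 2.14 CPM with INT-777, all lower. Its change was -0.50 ± 0.16 (SE, n = 3; edgeR adjusted p = 0.205, and 0.0221 with the day block). Cldn18, known from the stomach, had 0.803, 1.45 and 1.47 CPM in DMSO and 1.17, 1.80 and 3.51 CPM with INT-777, which overlapped (change 0.80, edgeR adjusted p = 0.412, and 0.0175 with the day block). Cldn1, a sealing claudin, did not pass the filter and had 9, 8 and 41 pairs in DMSO and 8, 7 and 31 with INT-777, more on day 3 in each group.

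Around the 9 genes, 134 further genes of epithelial junctions, from lists drawn up from general knowledge, were found in the tables and 113 were tested. Without the block 1 was higher and 3 were lower, with a median change of -0.01. In the paired fit 16 were higher and 23 lower. The background for these counts is that given above for all tested genes (0.688% higher and 0.763% lower without the block, 11.1% and 10.3% with it).

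Of 13 tested membrane proteins of the tight junction, Cxadr was the 1 that passed without the block. It encodes an adhesion molecule known as the coxsackievirus and adenovirus receptor, and had 153, 153 and 146 CPM in DMSO and 119, 115 and 118 CPM with INT-777. Cxadr fell by 0.36 on the log2 scale (SE 0.05, n = 3; edgeR adjusted p = 0.0161, and 1.8e-05 with the day block), with all treated libraries below all controls. Vangl2, a planar polarity protein, was lower (change -0.39; edgeR adjusted p = 0.102, and 0.0039 with the block). Ildr1, an angulin that marks the corners where cells meet, was higher, at 129, 128 and 107 CPM in DMSO and 151, 149 and 155 CPM with INT-777 (change 0.32; edgeR adjusted p = 0.111, and 0.00184 with the block). The list had 0 members higher without the block (2 in DESeq2), 2 higher and 3 lower with it, and a median of -0.13.

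Among 28 scaffold and polarity proteins 0 passed without the block in edgeR and 0 in DESeq2 (0 higher and 1 lower at an unadjusted p under 0.05), and 3 were higher and 4 lower with it (median -0.02). The members of smallest p were Mpp5 (change -0.16; edgeR adjusted p = 0.206, and 0.0386 with the block), Mpdz (-0.84; 0.316 and 0.0341) and Magi1 (-0.11; 0.346 and 0.128). Mpdz stood at 0.278 to 1.04 CPM, a low level.

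Of 28 regulators of the junction, such as kinases, small GTPases, myosins and proteases, 0 passed without the block in edgeR, and DESeq2 called 2 lower (1 higher and 4 lower at an unadjusted p under 0.05). With the block 1 was higher and 5 were lower (median -0.07). F2rl1, a receptor cleaved by proteases, had a change of -0.18 (edgeR adjusted p = 0.146, and 0.00978 with the block). The kinase gene Wnk4 had -0.27 (0.175 and 0.0073), and St14, which encodes the membrane protease matriptase, had -0.20 (0.181 and 0.00237). All 3 had every treated library below every control.

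The other junctions of the same cells were counted beside them. Of 13 genes of the adherens junction, Nectin2, an adhesion receptor, passed. It had 182, 181 and 195 CPM in DMSO and 134, 133 and 147 CPM with INT-777, and fell by 0.43 on the log2 scale (SE 0.06, n = 3; edgeR adjusted p = 0.0229). Cdh1, which encodes E-cadherin, had 1307, 1344 and 1312 CPM in DMSO and 1168, 1136 and 1116 CPM with INT-777, lower in all 3 (change -0.21 ± 0.05; edgeR adjusted p = 0.121, and 0.00205 with the block). Ctnnbip1, an inhibitor of beta-catenin, had a change of -0.23 (0.229 and 0.0191). This list had 2 members higher and 5 lower with the block, and a median of -0.03.

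Of 8 tested desmosome genes, 7 had a positive change, with a median of 0.16. Over all tested genes, 7892 of 15998 had a negative change. Pkp3, a plakophilin of the desmosome plaque, had 89.8, 88.0 and 90.2 CPM in DMSO and 108, 107 and 106 CPM with INT-777. Pkp3 rose by 0.26 (SE 0.04, n = 3; edgeR adjusted p = 0.0334), and all treated libraries lay above all controls. Its relatives Pkp1 (change 0.30; edgeR adjusted p = 0.0527, and 0.000117 with the block) and Pkp2 (0.19; 0.136 and 0.0079) also had every treated library above every control. With the block 5 of the 8 were higher and 0 lower (0 also at an unadjusted p under 0.05 in edgeR).

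Among 17 tested transcription factors linked to claudin genes, Grhl3, a grainyhead factor of epithelial barriers, passed without the block. It had 12.6, 11.3 and 10.3 CPM in DMSO and 7.48, 6.61 and 7.60 CPM with INT-777, and fell by 0.66 on the log2 scale (SE 0.11, n = 3; edgeR adjusted p = 0.0351). Grhl1 of the same family was higher in all 3 treated libraries, at 13.6, 13.3 and 12.4 CPM in DMSO and 17.7, 16.7 and 15.7 CPM with INT-777 (change 0.35; edgeR adjusted p = 0.0858, and 0.00214 with the block). Hnf4g, a nuclear receptor of the enterocyte, had a change of -0.22 (0.128 and 0.0137). With the block 2 of the 17 were higher and 5 lower, and the median was 0.04. The calls for Cxadr, Nectin2, Pkp3 and Grhl3 were each lost without DMSO replicate 1 or 2, INT-777 replicate 1 or 2, or the libraries of day 1 or 2, with edgeR adjusted p from 0.0997 to 0.855. Pkp3 and Grhl3 were also lost without INT-777 replicate 3 (0.0581 and 0.0594) and on 1 strand's counts (0.0718 and 0.0551). With the day block all 4 passed, also without each day in turn.

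**Figure D4:**
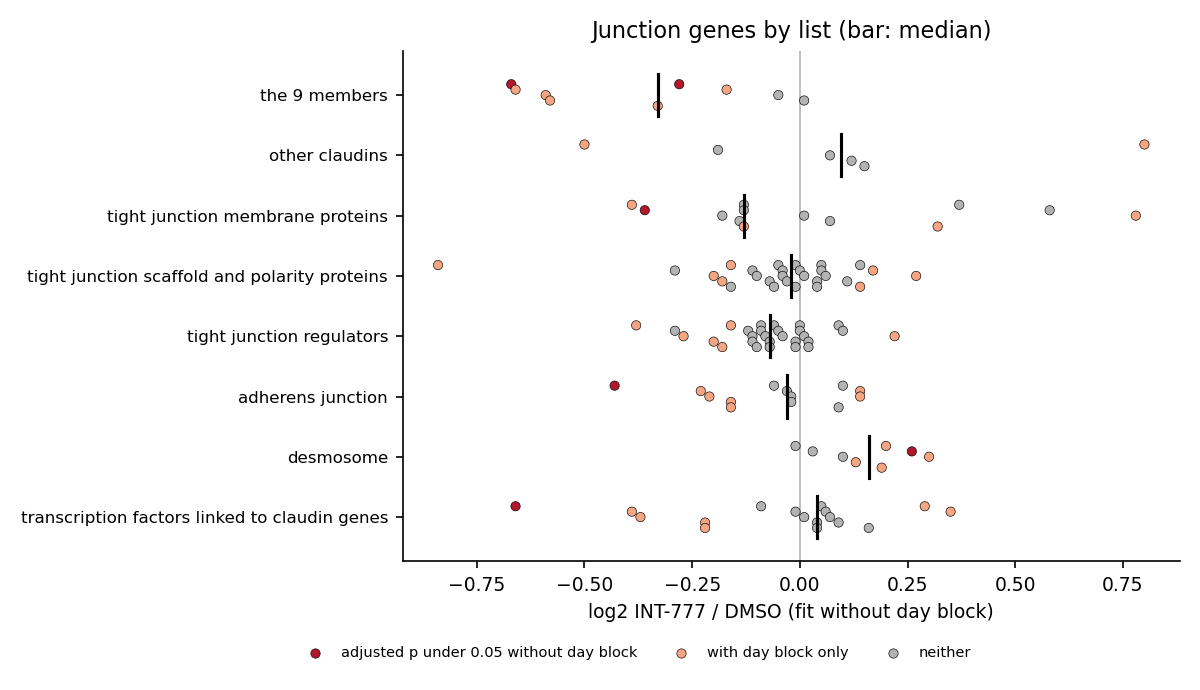
Change with INT-777 on the log2 scale (fit without the day block) of each tested gene by list, coloured by whether it passed without the block, with the block alone, or in neither fit, and with a bar at the median. The 9 genes have the lowest median (-0.33) and the desmosome list the highest (0.16) of the lists drawn.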

How the data were processed

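RNA from 6 libraries (paired reads, BGISEQ-500, per the labels) was counted per gene by the authors. Each deposited file gives unnormalised counts, in whole read pairs by gene, in the layout of STAR. Per the submitters' processing notes FastQC, STAR 2.73a and edgeR 3.24.3 were used, and the builds GRCm38 and mm10 are named; the annotation version was not given in the sources used here. Library sizes left out pairs that were unmapped, multimapping, ambiguous or on no gene. The column that ignores strand was used, since 50.1 to 50.6% of stranded pairs fell on the first strand, so reads of overlapping genes on opposite strands cannot be told apart. Of 54838 IDs, 54809 matched GENCODE M21, which gave symbols, positions and exon lengths.

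The counts were filtered with filterByExpr, scaled with TMM and tested in R 4.3.3 with edgeR 4.0.16 (quasi-likelihood, robust, two-sided, adjusted p under 0.05), with DESeq2 1.42.0 and limma-voom (limma 3.58.1) as alternatives. Python 3.11.15 made the tables and figures. CPM are counts per 1e6 TMM-scaled pairs. Standard errors were derived from the log2 change and the F statistic. The claudin balance used a prior count of 0.5. The scripts were tested on simulated data.

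The replicate number is a shared day per the labels, which pairs the libraries. Within days 1, 2 and 3 the deviations of DMSO and INT-777 from their group means had correlations of 0.329, 0.369 and 0.632. Across days they were 0.336 and 0.363 between days 1 and 2 and -0.435 to -0.487 with day 3, so the correlations set day 3 apart and do not pair days 1 and 2. The pairing there rests on the labels. The biological coefficient of variation was 0.149 without and 0.048 with the day block. Alternatives were this block, other scaling, filters, strands and thresholds, other tools, and fits without single libraries or days.

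The 9 genes, the gene lists and the tests were chosen with earlier results of these data known. Named genes are the 9, the members of each list that passed, the 3 of smallest p per list, Cldn1, Cldn8 and Cldn12, and the 2 profiles most like each of the 9. Cldn25 found no match, Igsf5 and Myl12b each matched 2 IDs and were left out, and Pals1 was read under its older symbol Mpp5.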

Additional observations from a re-analysis of the deposited data

How the results depend on the processing

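For the numbers of genes higher and lower, of the 9 genes lower and of the wider junction genes higher and lower, in that order, the values without a block were 110, 122, 2, 1 and 3. The replicate block, which pairs the libraries of a day, gave 1770, 1645, 7, 16 and 23. DESeq2 gave 369, 429, 5, 6 and 9, and DESeq2 with the replicate block 1115, 1161, 7, 12 and 16. With the replicate block and without day 1 they were 1691, 1556, 7, 14 and 19, without day 2 777, 1163, 7, 12 and 10, and without day 3 1938, 1915, 7, 13 and 28. No filter on low counts gave 186 genes higher, 249 lower and 3 wider genes higher, and an adjusted p under 0.10 gave 234, 248 and 3. Counts of the second strand left 1 of the 9 lower. Leaving out 1 library or 1 day without the block gave 0 to 2225 genes higher, 0 to 2067 lower, 0 to 8 of the 9 lower, 0 to 16 wider genes higher and 0 to 30 lower; the highest of each came without day 3, and these fits have fewer samples. In the fit of days, 0 of the 9 differed without day 3 and 5 without day 1 or day 2, against 6. The mean difference between INT-777 and DMSO in the balance of pore-forming over sealing claudins was 0.33 with Cldn3 and Cldn4 alone as sealing, against 0.22. Among the 9 genes and Cxadr, Nectin2, Pkp3 and Grhl3, which were followed 1 by 1, no called change reversed. RLE scaling, no scaling, limma-voom and a minimum of 1 CPM kept these counts within 1.5 times. Beyond the fewer samples or genes of some fits, the cause was not tested. Of the claudins outside the 9, 20 had under 10 pairs in all and 11 of those had none, and the reason was not tested.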

Other observations

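Cldn3 and Cldn4 start 39.3 kb apart on chromosome 5, and Cldn15 lies 2020 kb away on the same chromosome. Within 250 kb of Cldn3 and Cldn4, a distance chosen after their values were seen, 12 other genes were tested. In edgeR without the block 0 of the 12 passed (3 at an unadjusted p under 0.05, and 1 in DESeq2). The paired fit called 3 lower and 0 higher, where it called 10.3% of all tested genes lower and 11.1% higher, with a median change of -0.05 on the log2 scale over the 12 (range -0.54 to 0.12). The 3 were Mettl27 (change -0.54), Abhd11os (-0.25) and Mlxipl (-0.20), with edgeR adjusted p of 0.00564, 0.0284 and 0.00219 with the block. Abhd11os is named for the strand opposite Abhd11, and the counts ignore strand.

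Cldn6, a claudin of embryonic epithelium chosen after its values were seen, had 49, 31 and 98 pairs in DMSO and 42, 50 and 105 pairs with INT-777. It was higher on day 3 in each group, as Cldn1 was.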
